A study of Homo sapiens with 6 samples.

Results

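The inhibitors of cyclin-dependent kinases, together with MTAP and the retinoblastoma gene RB1, were followed in U-87, an established human glioma cell line, after an siRNA against P68. The set was given as 9 genes, and a gene was measured where at least 1 probe set of the array carried its symbol and no other symbol. By this rule 8 of the 9 genes, out of 18417 genes in all, had values, each from 1 probe set. CDKN2C was not analysed here. The study put total RNA on 6 Affymetrix arrays, of which 3 carry the label P68 Knockdown and 3 the label P68 Wild Type. P68 is the RNA helicase encoded by DDX5. All cells were U-87 grown with fetal bovine serum, and the treatment note gives siP68 or NC as transfected, without stating that NC is what the wild-type cells received. Whether arrays of 1 group stem from separate cultures is not labelled either, so p-values refer to the spread among arrays, which may be technical.

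CDK inhibitors hold back the cell cycle. Those of the INK4 family (CDKN2A, CDKN2B, CDKN2C and CDKN2D) bind CDK4 and CDK6, and those of the CIP/KIP family (CDKN1A, CDKN1B and CDKN1C) bind cyclin-CDK complexes more widely. Both act on the phosphorylation of the RB1 protein, which restrains E2F transcription factors until it is phosphorylated. CDKN2A also encodes ARF, from another first exon and another reading frame, and ARF binds MDM2 and so protects p53. CDKN2A, CDKN2B and MTAP lie side by side at 9p21, a locus often lost in glioma, and U-87 is generally described as carrying a homozygous deletion of CDKN2A. Whether that deletion also takes in MTAP or CDKN2B in these cells was not analysed here, so neither gene is taken as intact. MTAP recycles methylthioadenosine, a by-product of polyamine synthesis. P68 is known as a coactivator of p53, which drives CDKN1A.

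The starts of the locus are shown because 1 probe set stands for CDKN2A, and its annotation lists transcripts of both the ARF start and the INK4A start. RefSeq promoters (GRCh38.p14, 250 bases before to 50 after each start) were matched for 8 of the 9 genes. The gene without a match was CDKN1C, and the promoters of the 3 genes at 9p21 are shown. They are printed 5′ to 3′ on the gene's strand, with the GC box GGGCGG in capitals, searched on both strands, so that a box on the opposite strand reads CCGCCC.
MTAP, chr9:21802386-21802685, plus strand: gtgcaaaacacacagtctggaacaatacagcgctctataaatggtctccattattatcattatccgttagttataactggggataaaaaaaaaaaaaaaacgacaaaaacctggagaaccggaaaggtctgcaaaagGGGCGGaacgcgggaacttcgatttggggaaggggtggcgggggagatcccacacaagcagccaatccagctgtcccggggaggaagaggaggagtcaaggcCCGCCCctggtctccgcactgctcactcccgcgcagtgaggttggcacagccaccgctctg
CDKN2A, INK4A start, chr9:21974808-21975107, minus strand: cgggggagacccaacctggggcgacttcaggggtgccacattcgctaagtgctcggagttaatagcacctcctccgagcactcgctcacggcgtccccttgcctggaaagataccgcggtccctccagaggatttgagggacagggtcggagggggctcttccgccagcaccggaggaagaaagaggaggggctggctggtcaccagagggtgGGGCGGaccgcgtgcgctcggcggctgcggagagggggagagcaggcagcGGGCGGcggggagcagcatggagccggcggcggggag
CDKN2A, ARF start, chr9:21995275-21995574, minus strand: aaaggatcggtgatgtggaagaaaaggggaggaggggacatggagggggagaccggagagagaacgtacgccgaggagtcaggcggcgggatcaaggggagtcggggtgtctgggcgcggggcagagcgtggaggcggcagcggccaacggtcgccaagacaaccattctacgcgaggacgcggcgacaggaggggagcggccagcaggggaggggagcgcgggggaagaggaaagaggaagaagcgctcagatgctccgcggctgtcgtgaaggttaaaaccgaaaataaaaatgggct
CDKN2B, chr9:22009256-22009555, minus strand: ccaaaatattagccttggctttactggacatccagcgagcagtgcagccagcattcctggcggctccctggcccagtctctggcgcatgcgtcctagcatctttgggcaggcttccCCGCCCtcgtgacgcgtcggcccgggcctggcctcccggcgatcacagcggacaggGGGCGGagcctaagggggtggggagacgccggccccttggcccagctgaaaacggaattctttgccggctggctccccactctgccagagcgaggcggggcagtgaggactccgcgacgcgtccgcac

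The INK4A start of CDKN2A lies 172221 bases from the MTAP start, the ARF start a further 20467 bases away, and the CDKN2B start 13981 bases beyond that. The MTAP, INK4A and CDKN2B windows each held 2 GC boxes and the ARF window held 0, while 45% of the 35116 promoters in the table held at least 1. None of these windows held TTTCCCGC, TTTCGCGC, TTTGCCGC or TTTGGCGC, letters of the E2F site searched on both strands, which 3.31% of all promoters held. These matches describe letters only, and no absence of a factor follows from them.

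The knockdown was read first from its target. On the log2 scale, DDX5 read 9.47, 9.79 and 9.91 on the knockdown arrays (given here and below in the order of replicates 1, 2 and 3), while the wild-type arrays read 10.09, 10.25 and 10.30. The groups did not overlap, and 4.15% of all genes were likewise lower in the knockdown without overlap. The ratio of knockdown to wild type was 71.2% (unadjusted 95% confidence interval 58.4% to 86.9%), at an adjusted p in limma of 0.902. The log2 difference of -0.49 became -0.38 after repeated quantile normalization and also after cyclic loess. Signals of the whole table ran from 1.22 to 13.81, and array medians from 4.32 to 4.37. Knockdown replicate 2 was the brightest of the 6 arrays for 25.5% of all genes, more than any other array. Of 38 marker genes of glial and other cell types, 37 were measured and 0 passed the threshold of an adjusted p under 0.05 in limma (3 with an unadjusted p under 0.05 by the same tool, as had 5.09% of all genes, named here after their values were seen: AQP4, CD68 and KRT19). The intermediate filament genes VIM and GFAP, found in glioma cells, lay at the 97.6th and 75.9th percentile of gene signals, while S100B and SOX2, also glial, lay at the 16.0th and 28.1th. Among epithelial markers EPCAM and CDH1 lay at the 17.1th and 37.9th percentile but the keratin genes KRT18, KRT8 and KRT19 at the 96.8th, 75.8th and 75.4th. Among leukocyte and microglial markers PTPRC, AIF1 and CX3CR1 lay at the 7.85th, 9.93rd and 21.6th percentile, and ITGAM, CD68 and CSF1R at the 59.7th, 54.0th and 50.8th. Of the neuronal genes, MAP2 and SYT1 lay at the 30.5th, and SNAP25, RBFOX3 and NEFL at the 62.6th, 79.3rd and 92.4th. Endothelial markers ran from the 28.5th (KDR) to the 53.3rd (TEK). The signals thus did not follow cell type throughout.

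The signals of the 8 genes lay between the 28.3rd and the 95.9th percentile of all genes. Probe sets differ in how well they hybridise, so the order below is one of array signals and not of transcript numbers. No detection calls were used here, so 341 olfactory receptor genes, known chiefly from the nose, served as a scale for dim probe sets. Their median signal was 3.06, with a 5th percentile of 2.21 and a 95th percentile of 4.71.

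**Figure D1:**
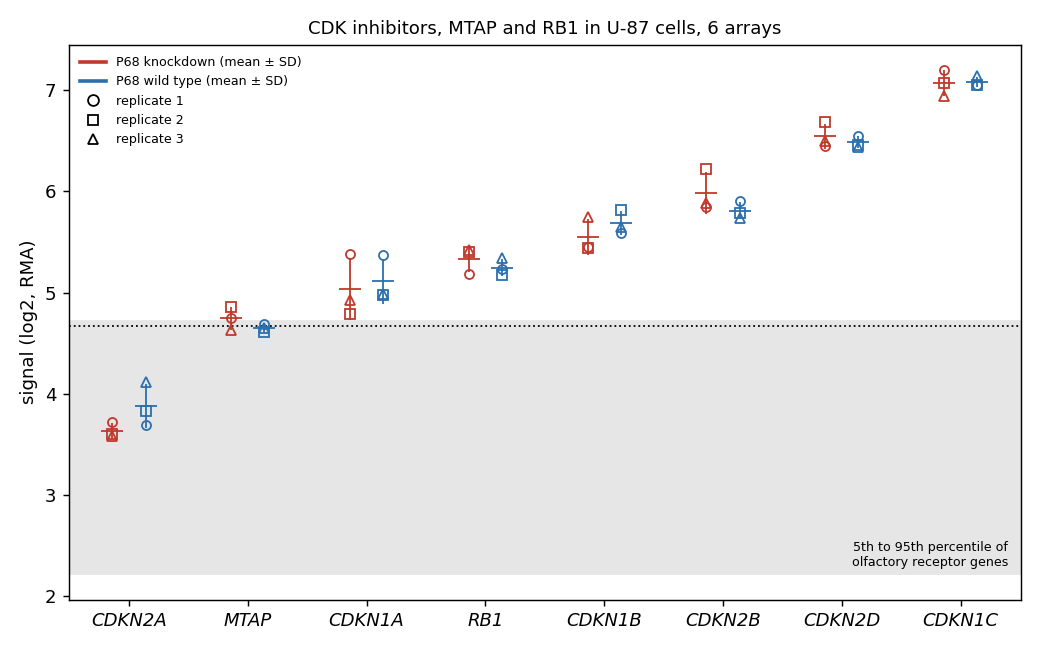
Signal (log2, RMA) of 8 genes, ordered by mean, on 3 P68 knockdown arrays (red) and 3 P68 wild-type arrays (blue). Open symbols are arrays, bars are mean ± SD, the grey band spans the 5th to the 95th percentile of 341 olfactory receptor genes, and the dotted line is the median gene at 4.67; CDKN2A lies inside the band on all arrays and CDKN1C, at 6.94 to 7.20, far above it.

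CDKN2A had the lowest signal, 3.76 ± 0.20 (SD, n = 6), and 22.9% of the olfactory receptor genes were brighter. MTAP followed at 4.70 ± 0.09 (SD, n = 6), close to the median gene at 4.67 and just below the 95th percentile of the olfactory receptors. No array value of CDKN2A reached the lowest of MTAP, 4.12 against 4.61. CDKN1A at 5.07 ± 0.24 (SD, n = 6) overlapped both MTAP below it and RB1 above it, the latter at 5.29 ± 0.11 (SD, n = 6). CDKN1B at 5.62 ± 0.15 and CDKN2B at 5.90 ± 0.17 (SD, n = 6 each) overlapped each other and lay above every RB1 value. CDKN2D at 6.51 ± 0.09 and CDKN1C at 7.08 ± 0.09 (SD, n = 6 each) stood apart from each other and from the rest, brighter than any olfactory receptor gene, of which the brightest was at 6.13. CDKN2B and CDKN2A thus lay at opposite ends of the locus in signal, with CDKN2B at the 82.4th percentile although the genes neighbour each other. DNA copy number was not analysed here, and a signal above the olfactory receptor range does not by itself show a transcript.

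Of the 8 genes, 0 passed an adjusted p under 0.05 in limma between knockdown and wild type, against 0% of all genes tested. None had an unadjusted p under 0.05, against 5.09% of all genes, and the arrays of the 2 groups overlapped for all 8, where 10.1% of all genes did not overlap (5.98% with the knockdown higher and 4.15% with it lower). The values lay above 0 for 4 genes and below 0 for 4, with a median log2 difference of 0.025 beside 0.01 for all genes. This median was -0.0026 with array weights, 0.01 when knockdown replicate 1 was dropped and 0.063 when wild-type replicate 1 was, so its sign is not settled. The absolute log2 differences ran from 0.01 to 0.25, and the median over all genes was 0.09. With 3 arrays against 3, the exact two-sided permutation test can reach p = 0.1 at the lowest.

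**Figure D2:**
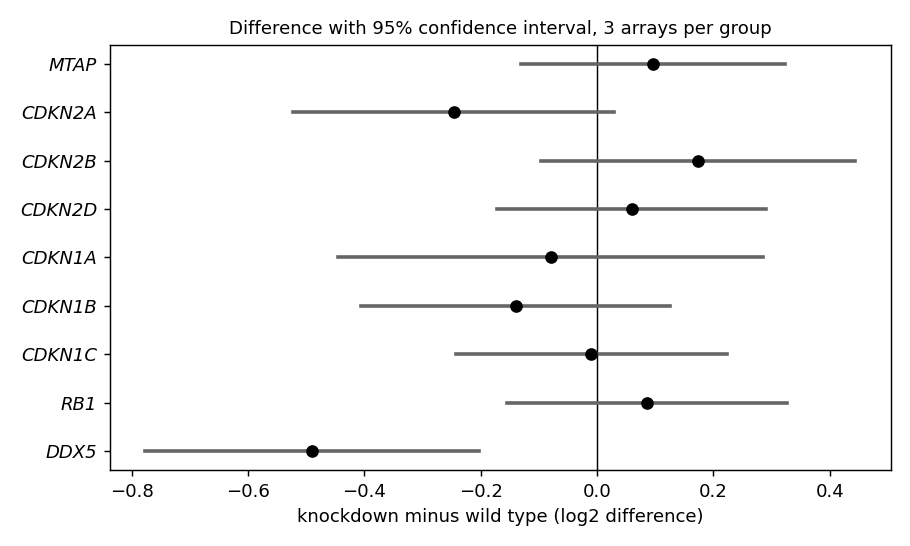
Knockdown minus wild type (log2 difference, points) with the 95% confidence interval (bars, limma) for MTAP, the CDK inhibitors, RB1 and the targeted gene DDX5, 3 arrays per group. The interval of DDX5 (-0.78 to -0.20) leaves out 0, and the intervals of the other 8 genes span it. The intervals are not adjusted for the number of genes, and the adjusted p of DDX5 in limma was 0.902.

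Of the INK4 family, CDKN2A had the widest difference. The knockdown arrays read 3.72, 3.60 and 3.58, and the wild-type arrays 3.69, 3.83 and 4.12. Wild-type replicate 3 was the highest of the 6, and wild-type replicate 1 fell within the knockdown range. The log2 difference was -0.25 ± 0.12 (SE), at an adjusted p in limma of 0.902 and an exact permutation p of 0.2. It was -0.13 without wild-type replicate 3 and -0.34 without wild-type replicate 1. With a mean under 4.28, the limit of the dimmest 40% of genes, CDKN2A was left out where these were dropped, a filter the other 7 passed.

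CDKN2B encodes p15, an inhibitor that TGF-beta induces. The knockdown arrays read 5.85, 6.22 and 5.88, and the wild-type arrays 5.90, 5.79 and 5.74. Knockdown replicate 2 stood alone above 6, and the other 5 arrays lay within the range of 5.74 to 5.90. The log2 difference of 0.17 ± 0.12 (SE) had an adjusted p in limma of 0.906 and became 0.055 without knockdown replicate 2.

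CDKN2D encodes another INK4 protein, p19. Knockdown arrays read 6.45, 6.68 and 6.50 for it, and wild-type arrays 6.55, 6.46 and 6.44. Knockdown replicate 2 was again the highest array. The log2 difference of 0.06 ± 0.10 (SE) became -0.0083 without that array. At 104% of the wild-type signal, the 95% confidence interval ran from 88.8% to 122%.

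For MTAP the knockdown arrays read 4.75, 4.86 and 4.63, and the wild-type arrays 4.69, 4.61 and 4.65. Its wild-type arrays lay close together (SD 0.04, n = 3), and knockdown replicate 3 fell among them. Its log2 difference of 0.10 ± 0.10 (SE) equals 107% of the wild-type signal (95% confidence interval 91.4% to 125%), and was 0.040 without knockdown replicate 2. Knockdown replicate 2 was thus the brightest array for CDKN2B, CDKN2D and MTAP, 3 of the 8 genes (37.5%) beside 25.5% of all genes, while CDKN2A read 3.60 on it, below 4 of the other 5 arrays. The part of that array in these results was not tested beyond leaving it out.

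The CIP/KIP genes did not pass the threshold either. CDKN1A encodes p21, the p53-induced inhibitor. Its signals were 5.38, 4.79 and 4.93 on knockdown arrays, and 5.37, 4.98 and 4.99 on wild-type arrays. The replicate 1 arrays of both groups stood high, and the other 4 arrays lay between 4.79 and 4.99, with both knockdown arrays of these 4 lower than both wild-type arrays. The log2 difference of -0.08 ± 0.16 (SE), at an adjusted p in limma of 0.956, turned to 0.048 without wild-type replicate 1, to 0.042 without knockdown replicate 2 and to -0.25 without knockdown replicate 1. CDKN1A varied more within its groups than 92.1% of all genes (pooled SD 0.27), and its interval was the widest of the 8, 73.4% to 122% of the wild-type signal.

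CDKN1B encodes p27, which is removed through SKP2 before S phase. Its signals were 5.45, 5.44 and 5.75 on knockdown arrays, and 5.59, 5.82 and 5.65 on wild-type arrays. Knockdown replicates 1 and 2 were the lowest of the 6 arrays, while knockdown replicate 3 was the second highest. The log2 difference was -0.14 ± 0.12 (SE), at an adjusted p in limma of 0.912, and lay at -0.24 when knockdown replicate 3 was left out and at -0.073 when wild-type replicate 2 was.

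CDKN1C encodes p57, an imprinted inhibitor. It had the brightest signal of the 8 genes and the smallest difference, with 7.20, 7.07 and 6.94 on knockdown arrays, and 7.05, 7.05 and 7.14 on wild-type arrays. The highest and the lowest array were both knockdown arrays. The log2 difference of -0.01 ± 0.11 (SE) was 0.022 after cyclic loess and 0.021 after repeated quantile normalization, so its sign is not settled, and the interval ran from 84.5% to 117% of the wild-type signal.

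RB1, on which these inhibitors converge, read 5.18, 5.40 and 5.42 on knockdown arrays, and 5.23, 5.17 and 5.34 on wild-type arrays. Knockdown replicates 2 and 3 were the highest arrays and knockdown replicate 1 the second lowest. Its log2 difference of 0.087 ± 0.11 (SE) equals 106% of the wild-type signal (95% confidence interval 89.9% to 125%). Leaving out knockdown replicate 3 gave 0.043, and leaving out knockdown replicate 1 gave 0.16. Over all 8 genes the intervals reached from 69.6% (CDKN2A) to 136% (CDKN2B) of the wild-type signal at most.

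The genes around the locus were read in RefSeq order, 12 measured genes on either side of CDKN2A. Of these 24, 16 had mean signals under the 95th percentile of the olfactory receptor genes, and 8 lay above it. The 7 interferon genes on the MTAP side, which encode antiviral cytokines, gave signals of 2.20 to 3.92. Next to MTAP among the measured genes lay MIR31, the gene of a microRNA, at 3.72, the 27.5th percentile, close to CDKN2A at the 28.3rd. Its mature product, with the seed (bases 2 to 8) in capitals, is given because it lies in the same stretch of the chromosome, at chr9:21512158-21512178 (GRCh38.p14, minus strand).
hsa-miR-31-5p: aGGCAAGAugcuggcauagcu

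**Figure D3:**
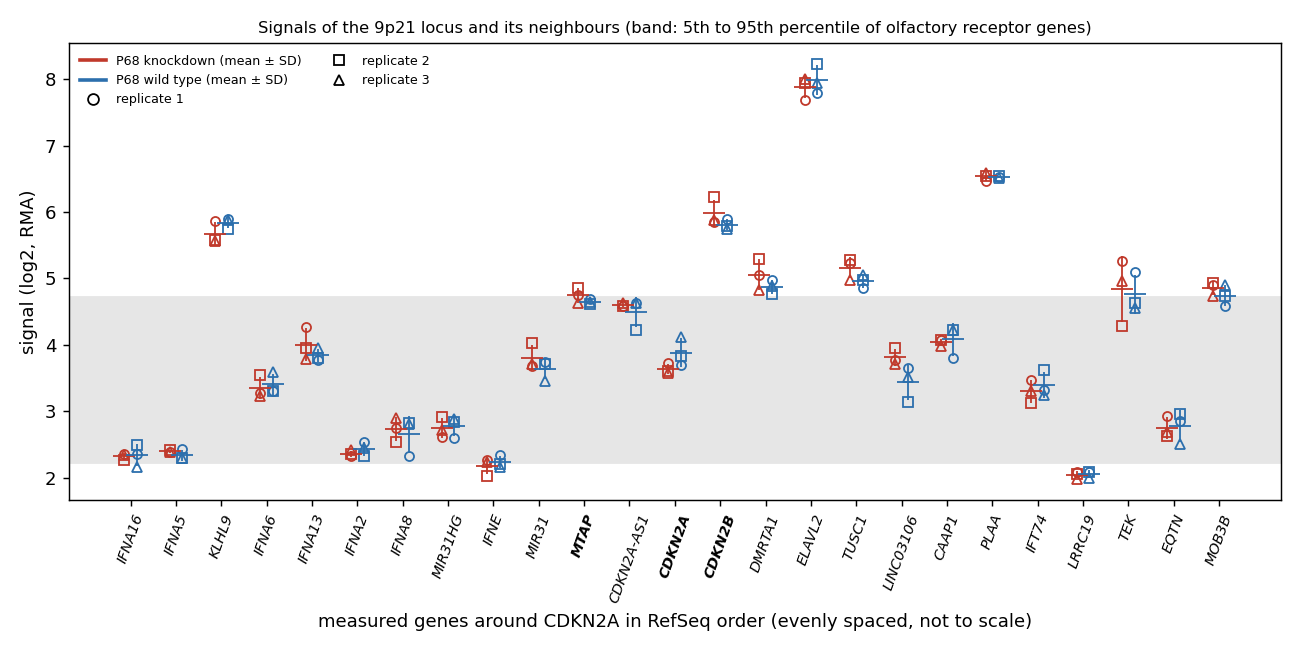
Signal (log2, RMA) of CDKN2A and the 12 measured genes on either side in RefSeq order, evenly spaced, on 3 P68 knockdown (red) and 3 P68 wild-type arrays (blue). Open symbols are arrays, bars are mean ± SD and the grey band is the 5th to 95th percentile of 341 olfactory receptor genes; MIR31 and CDKN2A lie in the band on all 6 arrays and CDKN2B (5.74 to 6.22) above it.

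CDKN2A-AS1, the antisense transcript listed beside CDKN2A, had a knockdown mean of 4.60 ± 0.026 and a wild-type mean of 4.50 ± 0.23 (SD, n = 3 each). DMRTA1, the first measured gene past CDKN2B, had means of 5.05 ± 0.24 and 4.87 ± 0.11 (SD, n = 3 each). MIR31 had means of 3.80 ± 0.19 and 3.64 ± 0.15 (SD, n = 3 each). Knockdown replicate 2 was the brightest array for 8 of the 24 neighbours (33.3%), and without it DMRTA1 and MIR31 had log2 differences of 0.062 and 0.058 in place of 0.18 and 0.17. Farther out, ELAVL2, a neuronal RNA-binding protein gene, was the brightest of the 24 at 7.94, and KLHL9, on the interferon side, lay at 5.76 (both named after their values were seen).

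Of the 24 neighbours, which include MTAP and CDKN2B, 0 passed the threshold in limma (1 with an unadjusted p under 0.05 by the same tool, against 5.09% of all genes), 13 lay above 0 and 11 below, and the median log2 difference was 0.033. The largest difference was that of LINC03106, a long non-coding RNA, with a knockdown mean of 3.81 ± 0.12 and a wild-type mean of 3.44 ± 0.27 (SD, n = 3 each). This log2 difference was 0.37 ± 0.14 (SE), and its adjusted p in limma 0.902. It became 0.23 without wild-type replicate 2. It was the one neighbour of 24 whose groups did not overlap, where 10.1% of all genes did not, and its signal lay within the olfactory receptor range.

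The partners of the inhibitors were described from lists, and no member of any list passed the threshold over all genes. For comparison, 8563 of all 18417 genes lay below 0 and 9662 above, and 5.09% had an unadjusted p under 0.05 in limma. The lists were brighter than all genes, with median signals of 4.85 to 5.72 against 4.67. Of the 341 olfactory receptor genes, with a median signal of 3.06, 210 lay above 0 and 129 below. Whether signal level bears on the counts of the lists was not tested. Of 18 cyclins and CDKs, 11 lay below 0 and 7 above, with a median log2 difference of -0.058, or -0.02 without wild-type replicate 2. An unadjusted p under 0.05 in limma was found for 2 of the 18. CDK1, the mitotic kinase, had the largest difference, with a knockdown mean of 5.80 ± 0.12 and a wild-type mean of 6.15 ± 0.07 (SD, n = 3 each). Its groups did not overlap, nor did those of CDK4 and of the CDK1-inhibiting kinase WEE1, all 3 lower in the knockdown, as were 4.15% of all genes. CDK4, a target of the INK4 proteins, had a log2 difference of -0.16 ± 0.10 (SE), and CDK6, the other target, one of 0.13 ± 0.10 (SE). The D-type cyclins that CDK4 and CDK6 bind gave -0.13 for CCND1, 0.017 for CCND2 (-0.0067 without knockdown replicate 3) and -0.10 for CCND3. CDK4, CDK6, WEE1 and the cyclins were named after their values were seen.

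Of 20 RB family, E2F and associated genes, 13 lay below 0 and 7 above (median -0.057), and 0 passed the threshold in limma (0 with an unadjusted p under 0.05 by the same tool). TFDP1, the dimer partner of E2F proteins, differed most, at -0.21 ± 0.11 (SE), or -0.13 without wild-type replicate 2. Of 24 E2F target genes listed, 22 were measured, 16 lay below 0, 4 above and 2 at 0 (median -0.075). An unadjusted p under 0.05 in limma was found for 2 of the 22, against 5.09% of all genes. ORC1, of the origin recognition complex, differed most, with a knockdown mean of 4.88 ± 0.47 and a wild-type mean of 4.57 ± 0.13 (SD, n = 3 each), in the opposite direction to the list's median. Without knockdown replicate 1, at 5.42 the highest array for it, the log2 difference of ORC1 fell from 0.31 to 0.040. Of these targets, 3 had knockdown arrays all below the wild type and 1 had them all above, beside 4.15% and 5.98% of all genes.

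**Figure D4:**
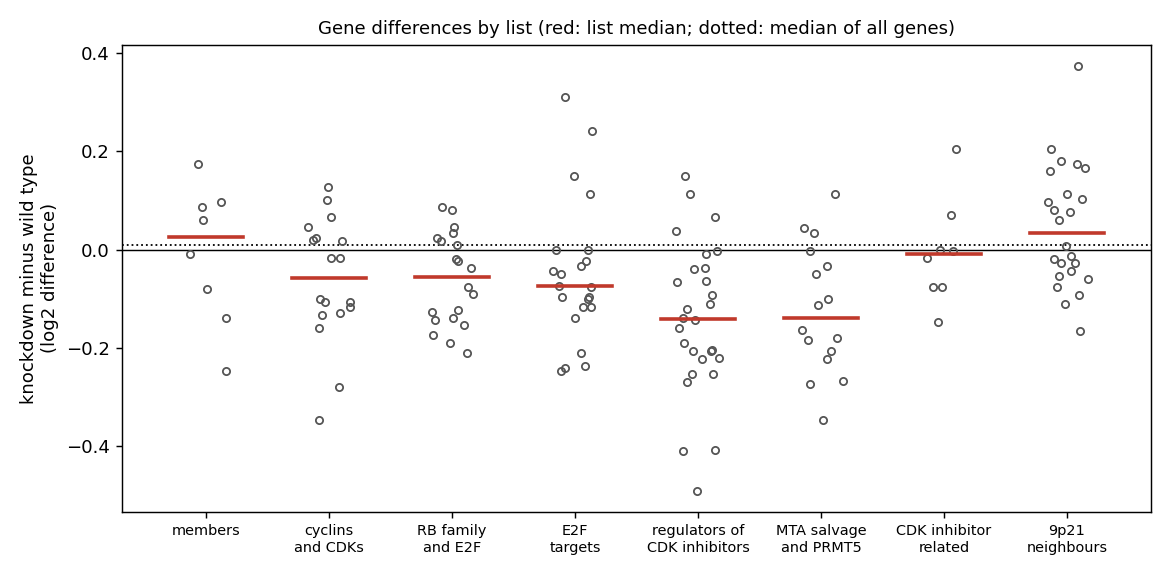
Knockdown minus wild type (log2 difference) of each measured gene (circles) in the 8 measured genes of the set and in 7 lists around them; red lines are list medians and the dotted line is the median of all genes, 0.01. The medians of the regulators of CDK inhibitors and of the MTA salvage and PRMT5 list lie lowest, at -0.14 each, and the set itself has its median at 0.025.

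Of 31 genes that control the inhibitors, 28 were measured, and 24 of these lay below 0 and 4 above (median -0.14). Of all 18417 genes, 8563 lay below 0. The list had a median signal of 5.72 against 4.67 for all genes, and genes of like signal were not compared. DDX5, the siRNA target, had the largest difference and is itself on the list. Among the rest, named after their values were seen, DMTF1, an activator of the ARF start, gave -0.41 ± 0.14 (SE). SKP1 and SKP2, of the ubiquitin ligase that removes CDKN1B protein, gave -0.41 ± 0.17 and -0.25 ± 0.16 (SE), and -0.19 and -0.093 without knockdown replicate 2. MDM2, a p53 target like CDKN1A and the partner of ARF, gave -0.25 ± 0.12 (SE), and -0.16 without wild-type replicate 1. The polycomb gene CBX7, a repressor of CDKN2A, gave -0.21 ± 0.10 (SE). The list's 4 genes of 28 with an unadjusted p under 0.05, which 5.09% of all genes had, were the siRNA target DDX5, DMTF1, SKP1 and TBX3, and the lowest limma adjusted p on the list was 0.902. The list's median ran from -0.16 to -0.10 with single arrays left out.

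Of 16 genes of methylthioadenosine salvage, polyamine synthesis and the PRMT5 complex, the processes tied to MTAP, 13 lay below 0 and 3 above (median -0.14). Among all 18417 genes, 8563 lay below 0, at a median signal of 4.67 beside 5.31 for this list. An unadjusted p under 0.05 in limma was found for 2 of the 16, against 5.09% of all genes. ODC1, the first enzyme of polyamine synthesis, differed most, with a knockdown mean of 5.32 ± 0.29 and a wild-type mean of 5.67 ± 0.15 (SD, n = 3 each), and its groups overlapped. Its log2 difference of -0.35 became -0.20 without knockdown replicate 1. Without single arrays this median ran from -0.15 to -0.085, and it was -0.12 after cyclic loess. PRMT5, the arginine methyltransferase that methylthioadenosine inhibits, had a log2 difference of -0.18 ± 0.14 (SE), and MAT2A, which makes S-adenosylmethionine, one of -0.18 ± 0.15 (SE), which became -0.11 (wild-type replicate 3 left out) and -0.048 (knockdown replicate 2 left out), both named after their values were seen. Of 8 genes with names or products close to the CDK inhibitors, 2 lay above 0, 5 below and 1 at 0 (median -0.01), and CABLES2 differed most, at 0.20 ± 0.11 (SE), or 0.12 without knockdown replicate 2. Without wild-type replicate 3 this last median was -0.07.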

How the data were processed

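Gene expression was measured in 3 P68 knockdown and 3 P68 wild-type samples of U-87. The deposited table holds log2 signals per probe set from RMA, per the submitters' processing notes. RMA equalises the arrays, which hides any shift common to most genes. The RMA version is not given in the sources used here. Of 29096 probe sets, 19460 had 1 gene symbol in the platform annotation, 1754 had several and 7882 none. The probe set of highest mean stood for each of 18417 genes.

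All genes were fitted in limma 3.58.1 (R 4.3.3; lmFit, eBayes, two-sided tests, group alone in the model), with Benjamini-Hochberg adjustment and a threshold of 0.05. The fit was tested on simulated data. Precision is limited by the number of arrays: the median standard error was 0.12. The genes and lists were chosen with earlier results of these data known. Named are the 8 genes, DDX5, markers, the member of each list with the largest difference (none passed) and the neighbours of the locus. RefSeq (GRCh38.p14) gave the gene order, matched by gene identifier for 19429 probe sets. Same-numbered arrays were checked for pairing by the correlation of their deviations from group means. The alternatives were other scalings, a filter on dim genes, probe set rules, variance models, a stricter threshold (0.01), a replicate block and fits without single arrays.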

Additional observations from a re-analysis of the deposited data

How the results depend on the processing

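No gene passed an adjusted p of 0.05 in limma under any alternative run, nor of 0.01 in the limma fit reported, and the count with an unadjusted p under 0.05 by limma was 937 in that fit and 543 to 1353 with single arrays left out. Of 134 values of the 8 genes and DDX5 under alternatives, 127 kept their sign and side of the threshold and 7 changed sign. CDKN1C was 0.021 after repeated quantile normalization and 0.022 after cyclic loess, and with single arrays left out ran from -0.075 to 0.055. CDKN2D ran from -0.0083 to 0.11 and CDKN1A from -0.25 to 0.048 with single arrays left out. For 22 genes named from the lists or near the locus, fits without single arrays were added after seeing the data, and 130 of 132 values kept their sign, while CDKN2A-AS1 ran from -0.03 to 0.17 and CCND2 from -0.0067 to 0.043. Of 120 list medians, 4 moved beyond the spread between arrays. Without the dimmest 40% of genes they were -0.11 for cyclins and CDKs, -0.0067 for the RB family and E2F and 0.10 for the 9p21 neighbours. With single arrays left out the CDK inhibitor related list ran from -0.07 to 0.017. Same-numbered arrays had deviations correlated at 0.27, -0.03 and 0.13 for replicates 1, 2 and 3, and differently numbered arrays at -0.25 to 0.17. With 3 arrays per group these values cannot decide whether the numbers pair the arrays. With a replicate block 0 genes passed (1149 with an unadjusted p under 0.05, limma), and CDKN1A had a log2 difference of -0.08 with an adjusted p of 0.901. Dim signals limit what can be read for CDKN2A.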

Other observations

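The array-by-array patterns most like those of CDKN1A and RB1 were sought among the genes at or above the median signal, by the root mean square difference of deviations from each gene's mean over the 6 arrays. For CDKN1A these were NSFL1C at 0.0345 and EIF3G at 0.0377, where CDKN1A itself deviated by 0.223 (all on the log2 scale). For RB1 these were ENTPD6 at 0.0222 and FGFR3 at 0.0241, with RB1 itself deviating by 0.101. These were the closest of 9208 genes compared for each over 6 arrays, and how close the nearest gene lies for other profiles was not computed.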
